A study of Homo sapiens with 4 samples.

Results

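The cytochrome P450 genes described here were the protein-coding genes whose symbol starts with CYP and a digit, without CYP1A1, CYP1A2, CYP1B1, CYP51A1, CYP7A1, CYP7B1, CYP8B1 and CYP27A1. They were 48 of the 58302 genes in the files, and they were chosen by name and not by any measured value. The libraries came from HepG2, an established hepatocellular carcinoma cell line labelled as wild type with no other allele named. The cells were given 1 mM melatonin, or its solvent DMSO, for 24 h or 48 h. There was 1 mRNA-seq library for each of these 4 conditions, so no comparison had a replicate and no p-value was computed. All intervals below are 95% intervals of the reads of a library and cover counting error only, not the spread between cultures.

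Cytochrome P450 enzymes bind heme and use molecular oxygen, with electrons passed on by NADPH P450 reductase in the endoplasmic reticulum or by ferredoxin in mitochondria, to oxidise drugs, fatty acids, steroids and vitamins. In liver, families of drug-metabolising P450 are induced through nuclear receptors such as PXR and CAR, and they are known to be low in HepG2 compared with hepatocytes. Other members make or inactivate signalling lipids and hormones, among them eicosanoids, vitamin D, retinoic acid and the steroid hormones.

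The files give FPKM, reads scaled to the length of the gene and the size of the library. Each FPKM was a whole number of reads times a step, and 21616676 to 23086025 reads per library lay on genes. Mitochondrial genes held 20.0%, 16.6%, 9.77% and 11.9% of these reads in the DMSO and melatonin libraries of 24 h and then of 48 h. TPM without these genes was 1 of the scalings tried. At 3 reads, taken as the floor, a gene of 1 kb had an FPKM of 0.135 to 0.163. All 9 hepatocyte markers were above an FPKM of 1 in every library, at summed FPKM of 7413 to 9381. Of 4 endothelial markers none reached 1, at summed FPKM of 0.543 to 1.18. Of 5 leukocyte markers LYZ alone reached 1, at 729 to 1069, and PTPRC and CD3E were at or near 0. Of 5 fibroblast markers PDGFRB alone reached 1, and DCN and COL1A2 were at 0. Single markers differed between libraries. In the DMSO and melatonin libraries of 24 h and then of 48 h, TTR had an FPKM of 41.9, 46.8, 50.6 and 256, AFP had 1131, 985, 1902 and 782, TF had 585, 547, 740 and 388, and PDGFRB had 1.81, 0.774, 3.58 and 4.33. Their part in the P450 values was not tested.

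Of the 48 genes, 15 reached an FPKM of 1 in some library. Another 11 stayed below 1 with at least 10 reads in some library, 13 had between 1 and 4 reads in their highest library, and 9 had no read in any library. By role, 7 of 12 fatty acid and eicosanoid P450 reached an FPKM of 1, as did 2 of 3 vitamin D P450, 3 of 5 without a settled main substrate, 1 of 6 steroid hormone P450 and 2 of 16 drug and xenobiotic P450. None of the 4 retinoid and 2 oxysterol P450 did. CYP2D6, at a highest FPKM of 1.21, was the lowest inside the level of 1, and CYP2R1, at 0.638, was the highest outside it. The summed FPKM of all 48 genes was 80.8 in DMSO 24 h, 81.9 in melatonin 24 h, 68.9 in DMSO 48 h and 81.7 in melatonin 48 h, from 5233 to 6899 reads. The summed FPKM of all genes was 479234, 424724, 337663 and 350770 in the same order. Differences between libraries in sums of FPKM, here and by role below, thus depend on the scaling. Of the 15 genes, 6 had their highest FPKM in melatonin 48 h, 4 in melatonin 24 h, 4 in DMSO 48 h and 1 in DMSO 24 h. CYP21A2, CYP27B1 and CYP2D6 reached 1 only in DMSO 48 h and CYP3A5 only in melatonin 48 h, so their highest library came with the filter. The same count over all genes was not made.

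**Figure D1:**
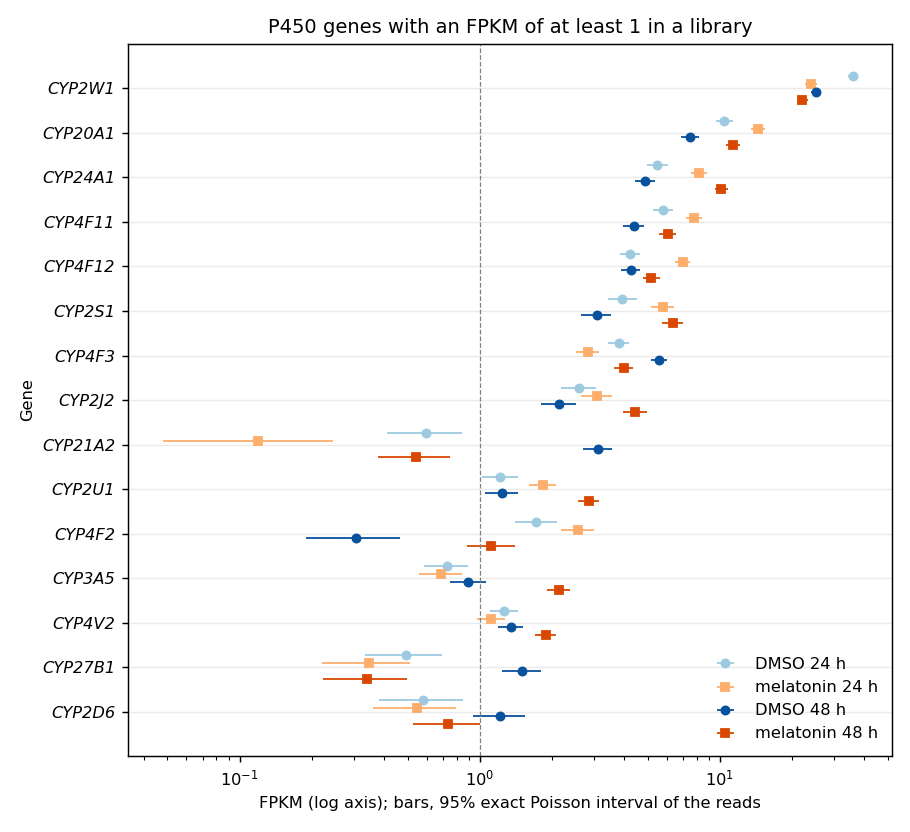
FPKM on a log axis of the 15 P450 genes that reached an FPKM of 1 in a library, 1 point per library with the 95% exact Poisson interval of its reads, circles for DMSO and squares for melatonin. CYP2W1 leads in every library, and CYP21A2, CYP27B1 and CYP4F2 show the widest spread between libraries.

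CYP2W1 was the P450 gene with the highest FPKM in every library, and CYP20A1 was the next. Their intervals overlapped neither each other nor any gene's below them, except that in melatonin 48 h the interval of CYP20A1 overlapped that of CYP24A1. In DMSO 24 h CYP4F11 and CYP24A1 could not be ordered within their intervals, nor could CYP4F12, CYP2S1 and CYP4F3.

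Sequences before the gene start are shown for CYP2W1, the highest gene, for CYP21A2, the gene called at 48 h, for CYP4F2, of the highest ratio at 48 h, with its neighbour CYP4F11, and for CYP2J2 and CYP2S1, which had a ratio above 2 at 48 h. They were picked after their values were seen, and CYP24A1, CYP2U1 and CYP3A5 also had such ratios. RefSeq (GRCh38.p14) held 49 promoters for 36 of the 48 genes. The motifs searched, on both strands of the 250 bases before the start, were TATAA (the TATA box), GGGCGG (the GC box), CCAAT (the CCAAT box), AGGTCA (the recognition site of many nuclear receptors), GCGTG (the core of the aryl hydrocarbon receptor's element) and CACGTG (an E box). TATAA was in 44.9% of the P450 promoters and 18.9% of all 35116 promoters, AGGTCA in 28.6% and 12.1%, CCAAT in 42.9% and 32.0%, GGGCGG in 32.7% and 42.6%, GCGTG in 18.4% and 32.2%, and CACGTG in 4.08% and 6.34%. A match describes these letters and is not evidence of binding, and several genes have more than 1 promoter in the counts.

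The lines below read 5′ to 3′ on the strand of the gene, in lower case with every match to a motif on either strand in capitals. Each is the piece of the 250 bases before the RefSeq start that also lies before the gene start in the files. The RefSeq start of CYP21A2, CYP4F2, CYP2J2 and CYP2S1 lies inside the gene of the files, so their pieces were cut to 100, 204, 233 and 80 bases. The uncut 250 bases of CYP21A2 also hold TATAA and GGGCGG, and those of the other 5 genes hold no kind of motif that their pieces lack. CYP2W1 (chr7:982931-983180, plus strand) is the highest gene and has 1 TATAA and 2 matches to GCGTG on the other strand. CYP21A2 (chr6:32038165-32038264, plus strand) has 1 AGGTCA and 1 CCAAT in its piece. CYP4F2 (chr19:15898121-15898324, minus strand) has 2 matches to CCAAT and its neighbour CYP4F11 (chr19:15934868-15935117, minus strand) has 1, all on the other strand. CYP2J2 (chr1:59926791-59927023, minus strand) has 2 GGGCGG and 1 GCGTG, and CYP2S1 (chr19:41192969-41193048, plus strand) has 1 GGGCGG and 1 AGGTCA, both on the other strand.
CYP2W1: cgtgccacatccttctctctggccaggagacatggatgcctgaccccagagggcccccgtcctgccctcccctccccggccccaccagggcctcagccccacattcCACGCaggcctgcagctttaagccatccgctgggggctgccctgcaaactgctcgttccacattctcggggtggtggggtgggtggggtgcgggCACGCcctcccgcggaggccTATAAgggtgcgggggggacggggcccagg
CYP21A2: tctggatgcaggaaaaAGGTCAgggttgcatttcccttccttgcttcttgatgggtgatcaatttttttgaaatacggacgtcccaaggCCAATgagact
CYP4F2: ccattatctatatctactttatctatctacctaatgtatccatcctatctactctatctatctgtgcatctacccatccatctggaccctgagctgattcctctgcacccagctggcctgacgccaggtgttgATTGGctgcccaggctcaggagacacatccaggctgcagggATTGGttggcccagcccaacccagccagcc
CYP4F11: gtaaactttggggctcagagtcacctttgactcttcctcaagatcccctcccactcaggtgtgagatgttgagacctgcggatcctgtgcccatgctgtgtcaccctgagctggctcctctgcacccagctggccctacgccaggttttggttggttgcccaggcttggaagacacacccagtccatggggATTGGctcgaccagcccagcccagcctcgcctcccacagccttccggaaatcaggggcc
CYP2J2: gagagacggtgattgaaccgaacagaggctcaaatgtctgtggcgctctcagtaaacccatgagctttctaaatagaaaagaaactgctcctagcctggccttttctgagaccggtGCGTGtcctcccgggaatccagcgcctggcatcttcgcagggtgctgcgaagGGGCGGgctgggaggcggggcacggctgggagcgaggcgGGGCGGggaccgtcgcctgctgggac
CYP2S1: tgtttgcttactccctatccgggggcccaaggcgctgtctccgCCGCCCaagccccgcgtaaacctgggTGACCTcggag

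The comparisons of melatonin with DMSO asked which genes differed after treatment at each time. A fold change was the log2 of (FPKM + 1) with melatonin over (FPKM + 1) with DMSO. A gene was tested if either library reached an FPKM of 1, and called at a log2 fold change of 1 or more in size. This scale understates changes of low genes, so the plain FPKM ratio is given beside it. In such bulk libraries more RNA per cell and more cells that express a gene cannot be told apart. At 24 h 11 of the 48 P450 genes were tested, and none was called higher or lower, beside 1.42% of all genes tested called higher and 2.93% called lower. At 48 h 15 were tested, none was called higher and 1 lower, CYP21A2, beside 2.39% and 3.32% of all genes. These calls depended on the pseudocount. At a pseudocount of 0.1, CYP24A1, CYP2J2, CYP2S1, CYP2U1, CYP3A5 and CYP4F2 passed the threshold as higher and CYP21A2 and CYP27B1 as lower, 6 and 2 of the 15, beside 5.48% and 6.64% of all genes.

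Most of the tested P450 genes were higher with melatonin by less than that threshold. At 24 h the counting interval of the ratio lay above 1 for 7 of the 11 and below 1 for 2, beside 28.2% and 22.4% of all genes tested. At 48 h it lay above 1 for 10 of the 15 and below 1 for 5, beside 29.1% and 33.1%. Among protein-coding genes alone these shares were 34.5% and 23.2% at 24 h and 34.0% and 36.5% at 48 h. The median log2 fold change of the tested P450 genes was 0.38 at 24 h and 0.39 at 48 h, and that of all genes tested was 0.02 and -0.02. CYP21A2, CYP27B1 and CYP2D6 entered the 48 h comparison only through the DMSO library and CYP3A5 and CYP4F2 only through the melatonin library, so the direction of these 5 came with the filter.

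**Figure D2:**
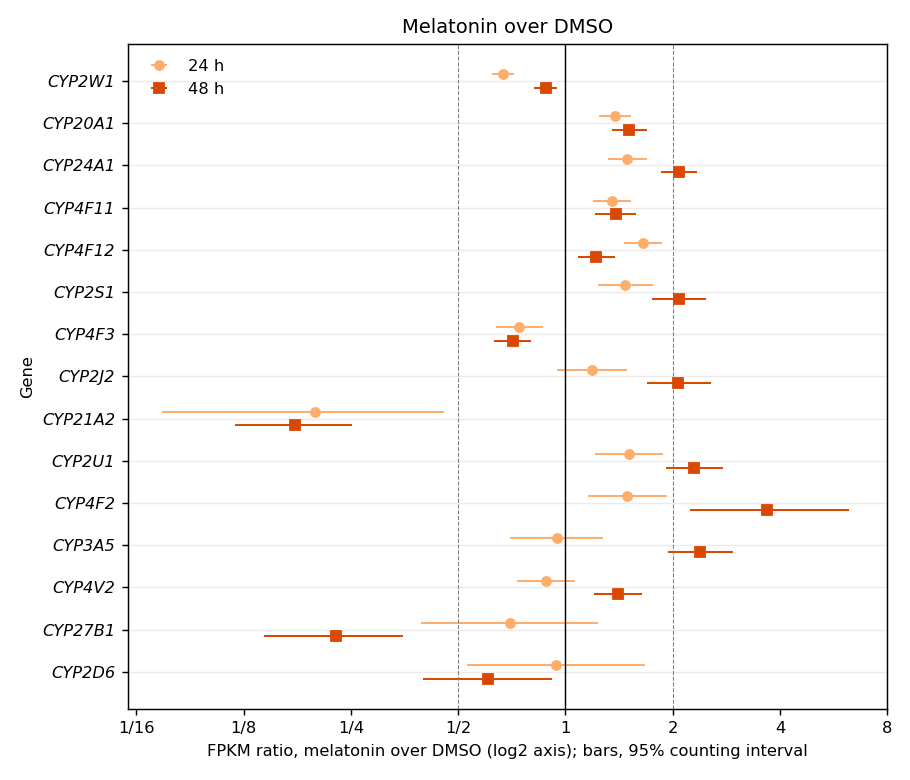
FPKM ratio of melatonin over DMSO on a log2 axis for the 15 P450 genes, circles at 24 h and squares at 48 h, with 95% counting intervals and dashed lines at ratios of 1/2 and 2. The 48 h intervals of CYP4F2, CYP3A5, CYP2U1, CYP24A1, CYP2S1 and CYP2J2 lie above 1.5, and those of CYP21A2 and CYP27B1 lie below 1/2.

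Among P450 without a settled main substrate, CYP2W1 (chr7:983199-989640), known for its expression in fetal gut and some tumours, had an FPKM of 35.8 in DMSO 24 h, 23.9 in melatonin 24 h, 25.1 in DMSO 48 h and 22.1 in melatonin 48 h. In the deposited FPKM it was high in DMSO 24 h and close together in the other libraries. After rescaling to TPM the interval of CYP2W1 for 48 h over 24 h with DMSO held 1. Over the scalings and pseudocounts the log2 fold change of CYP2W1 in that comparison ran from -0.53 to -0.006, so this gap depends on the scaling. Its ratio of melatonin over DMSO was 0.669 (0.623 to 0.718) at 24 h and 0.879 (0.816 to 0.946) at 48 h. CYP2W1 took 34.8% of the reads of the 48 genes in DMSO 24 h (33.5 to 36.1, exact Clopper-Pearson interval), 22.2% in melatonin 24 h, 27.4% in DMSO 48 h and 19.7% in melatonin 48 h (18.8 to 20.7).

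CYP20A1, an orphan P450, had an FPKM of 10.4 in DMSO 24 h, 14.4 in melatonin 24 h, 7.52 in DMSO 48 h and 11.4 in melatonin 48 h. CYP2S1, a P450 of epithelia known as inducible by dioxin, had 3.92, 5.78, 3.06 and 6.36 in the same order. Both genes were higher with melatonin at each time. The ratio of CYP20A1 was 1.38 (1.24 to 1.53) at 24 h and 1.51 (1.35 to 1.69) at 48 h. The ratio of CYP2S1 was 1.47 (1.24 to 1.76) and 2.08 (1.75 to 2.48). The gene length behind the FPKM of CYP20A1 was 3079 bp, and its exons in GENCODE 44 add up to 10619 bp, so its level per length depends on the annotation. The length cancels in its ratios, but whether reads on the added exons would change them was not tested.

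The CYP4F genes lie on chromosome 19 and encode omega-hydroxylases that inactivate leukotrienes and act on vitamins E and K. CYP4F11 had an FPKM of 5.79 in DMSO 24 h, 7.82 in melatonin 24 h, 4.37 in DMSO 48 h and 6.05 in melatonin 48 h. CYP4F12 had 4.23, 6.99, 4.24 and 5.18 in that order. Both were higher with melatonin at both times, with ratios for CYP4F11 of 1.35 (1.19 to 1.53) and 1.38 (1.21 to 1.58) and for CYP4F12 of 1.65 (1.46 to 1.87) and 1.22 (1.08 to 1.38). CYP4F3, the leukotriene B4 omega-hydroxylase, went the other way, with 3.79 in DMSO 24 h, 2.81 in melatonin 24 h, 5.59 in DMSO 48 h and 3.97 in melatonin 48 h. Its ratio was 0.742 (0.638 to 0.864) at 24 h and 0.710 (0.631 to 0.799) at 48 h.

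CYP4F2, the hydroxylase of vitamin K side chains, was low in DMSO 48 h and high at 24 h. Its FPKM was 1.72 in DMSO 24 h (99 reads), 2.56 in melatonin 24 h (163 reads), 0.305 in DMSO 48 h (21 reads) and 1.12 in melatonin 48 h (78 reads). The ratio was 1.49 (1.15 to 1.93) at 24 h and 3.67 (2.24 to 6.26) at 48 h, and the log2 fold change at 48 h was 0.70. The CYP4F genes resemble each other in sequence, and how the counting shared reads between such copies is not stated, so values of single CYP4F genes are uncertain to that extent.

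Of the other fatty acid P450, CYP2J2, an epoxygenase of arachidonic acid, had an FPKM of 2.59 in DMSO 24 h, 3.07 in melatonin 24 h, 2.14 in DMSO 48 h and 4.43 in melatonin 48 h. CYP2U1, a hydroxylase of long-chain fatty acids, had 1.22, 1.83, 1.23 and 2.84. CYP4V2, a hydroxylase of medium-chain fatty acids mutated in Bietti crystalline dystrophy, had 1.27, 1.12, 1.34 and 1.88. All 3 were highest in melatonin 48 h. At 48 h the ratio was 2.07 (1.69 to 2.55) for CYP2J2, 2.30 (1.91 to 2.78) for CYP2U1 and 1.40 (1.20 to 1.63) for CYP4V2. At 24 h it was 1.5 (1.21 to 1.87) for CYP2U1, while the intervals of CYP2J2 (0.948 to 1.49) and CYP4V2 (0.729 to 1.06) held 1. Of the 12 genes of this role, 7 were tested at 48 h, with 6 intervals above 1 and 1 below, beside the 29.1% and 33.1% of all genes, and CYP4F2 was tested only through the melatonin library. The summed FPKM of the role was 20.6, 26.2, 19.2 and 25.5 over the libraries in the same order.

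The vitamin D P450 differed in direction. CYP24A1 (chr20:54153449-54173973), which inactivates vitamin D, had an FPKM of 5.49 in DMSO 24 h, 8.17 in melatonin 24 h, 4.88 in DMSO 48 h and 10.1 in melatonin 48 h. It was higher with melatonin at each time, with a ratio of 1.49 (1.31 to 1.69) at 24 h and 2.08 (1.85 to 2.34) at 48 h. CYP27B1 (chr12:57762334-57768986), which makes the active hormone, had 0.491 in DMSO 24 h (31 reads), 0.344 in melatonin 24 h (24 reads), 1.5 in DMSO 48 h (113 reads) and 0.340 in melatonin 48 h (26 reads). DMSO 48 h stood above the other libraries, and the ratio at 48 h was 0.227 (0.142 to 0.351) with a log2 fold change of -0.90. The 24 h interval of CYP27B1, 0.394 to 1.23, held 1.

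CYP27B1 overlaps METTL1, a tRNA methyltransferase gene on the same strand, over 107 bp, or 3.26% of its exon bases in GENCODE 44. METTL1, picked after its values were seen, had 265 and 414 reads with DMSO and melatonin at 24 h and 204 and 349 at 48 h. Whether reads of METTL1 were counted for CYP27B1 was not tested. CYP2R1, which takes the first step of vitamin D activation, stayed between 0.426 and 0.638 FPKM, from 39 to 64 reads. VDR, the vitamin D receptor, had 7, 7, 1 and 8 reads in the same order.

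Of the steroid hormone P450, CYP21A2 (chr6:32038265-32041670), the adrenal steroid hydroxylase needed for cortisol and aldosterone, was the gene called lower with melatonin at 48 h. Its FPKM was 0.599 in DMSO 24 h (32 reads), 0.119 in melatonin 24 h (7 reads), 3.10 in DMSO 48 h (198 reads) and 0.542 in melatonin 48 h (35 reads). It was high in DMSO 48 h alone and lower with melatonin than with DMSO at each time. The ratio was 0.198 (0.0738 to 0.457) at 24 h and 0.175 (0.118 to 0.251) at 48 h, and the log2 fold change at 48 h was -1.41.

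CYP21A2 lies in a duplicated stretch of the major histocompatibility complex with a near-identical pseudogene, CYP21A1P, so reads of the pair cannot be assigned with certainty. These neighbours were picked after their values were seen. CYP21A1P had 57 reads in DMSO 24 h, 14 in melatonin 24 h, 260 in DMSO 48 h and 44 in melatonin 48 h, and a ratio of 0.167 at 48 h. TNXA, the truncated copy of tenascin X next to it, had 17, 4, 103 and 9 reads. STK19, a gene at the start of the duplicated stretch, had 130, 135, 454 and 238. These 3 genes were highest in DMSO 48 h, as CYP21A2 was. The complement genes between them were highest in DMSO 24 h, with C4A at 6941, 6688, 4312 and 4739 reads and C4B at 3674, 2588, 2319 and 2479. TNXB, which overlaps 10.6% of the exon bases of CYP21A2 from the opposite strand, had 43, 83, 86 and 117 reads. Whether the counting used strand is not stated, and without strand the reads of such a pair cannot be told apart.

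**Figure D3:**
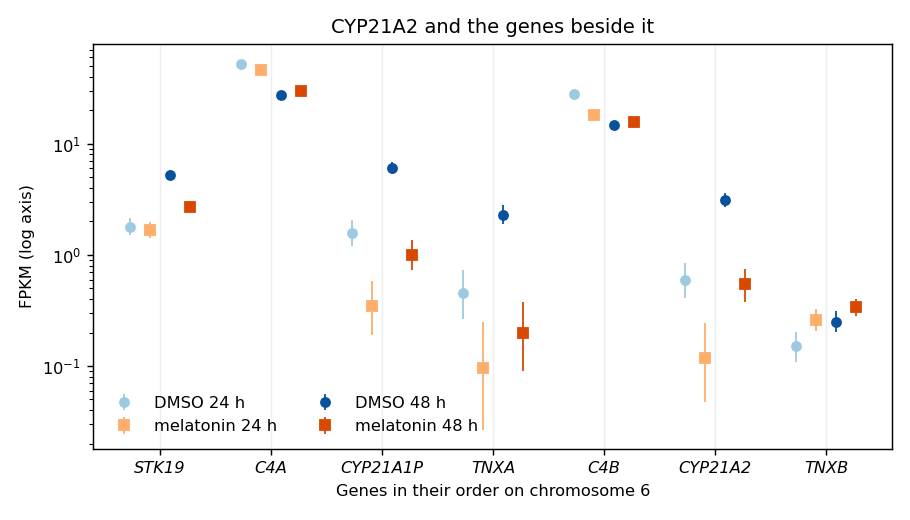
FPKM on a log axis of CYP21A2 and 6 genes beside it, in their order on chromosome 6, with 1 point per library and the 95% exact Poisson interval of its reads. STK19, CYP21A1P, TNXA and CYP21A2 are highest in DMSO 48 h, and C4A and C4B are highest in DMSO 24 h.

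The other steroid hormone P450 stayed below an FPKM of 1. CYP19A1, the aromatase that makes estrogens, had 96 reads in DMSO 24 h, 64 in melatonin 24 h, 61 in DMSO 48 h and 48 in melatonin 48 h, with a ratio of 0.603 (0.433 to 0.836) at 24 h and an interval of 0.521 to 1.15 at 48 h. CYP17A1, which leads towards cortisol and androgens, had 9, 4, 19 and 1 reads, and CYP11A1, which cleaves the cholesterol side chain, had 16, 21, 3 and 8. WBP1L overlaps 41.9% of the exon bases of CYP17A1 from the opposite strand and had 511 to 843 reads, so the few reads at CYP17A1 cannot be told apart from those of WBP1L without strand. CYP11B1 and CYP11B2, the last enzymes of cortisol and aldosterone synthesis, had no read in any library.

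The drug and xenobiotic P450 were low as a group, with a summed FPKM over 16 genes of 1.86 in DMSO 24 h, 1.69 in melatonin 24 h, 3.22 in DMSO 48 h and 4.02 in melatonin 48 h. CYP3A5, which oxidises drugs and steroids, had 0.728, 0.689, 0.894 and 2.13 in that order. It was high in melatonin 48 h alone, at a ratio of 2.39 (1.94 to 2.95) and a log2 fold change of 0.73, while the 24 h interval, 0.70 to 1.28, held 1. CYP2D6, which oxidises many antidepressants and opioids, had 0.580 (26 reads), 0.545 (27 reads), 1.21 (65 reads) and 0.737 (40 reads). Its ratio at 48 h was 0.608 (0.399 to 0.915). The related CYP2D7 and CYP2D8P, which share sequence with CYP2D6 and were picked after their values were seen, had 16 to 40 and 26 to 56 reads.

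CYP3A4, the main drug-metabolising P450 of adult liver, had 6 reads in DMSO 24 h, 2 in melatonin 24 h, 11 in DMSO 48 h and 10 in melatonin 48 h. CYP3A7, its fetal relative, had 8, 6, 11 and 11, and shares 42.6% of its exon bases with the read-through gene CYP3A7-CYP3A51P, which had none. CYP3A43 had 12, 7, 14 and 34 reads and a ratio of 2.40 (1.25 to 4.84) at 48 h. Among the CYP3A genes CYP3A5 was thus the one that reached an FPKM of 1. CYP2E1, which oxidises ethanol, had 2, 3, 17 and 12 reads, and SYCE1, opposite to 22.9% of its exon bases, had 2, 0, 16 and 11. CYP2A6, the nicotine oxidase, had 0, 2, 11 and 7 reads, and CYP2C8 had 0, 3, 12 and 1. CYP2B6, CYP2C19, CYP2A13 and CYP3A7-CYP3A51P were among the genes with no read in any library, as were the fatty acid P450 CYP4B1 and CYP4F8. For the 9 genes without a read, 3 reads would have given an FPKM of 0.0192 to 0.0940, so levels under that were not detectable at this depth. CYP3A7-CYP3A51P shares 79.9% of its exon bases with CYP3A7 on the same strand. How shared reads were assigned is not stated, so this limit may not hold for CYP3A7-CYP3A51P.

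**Figure D4:**
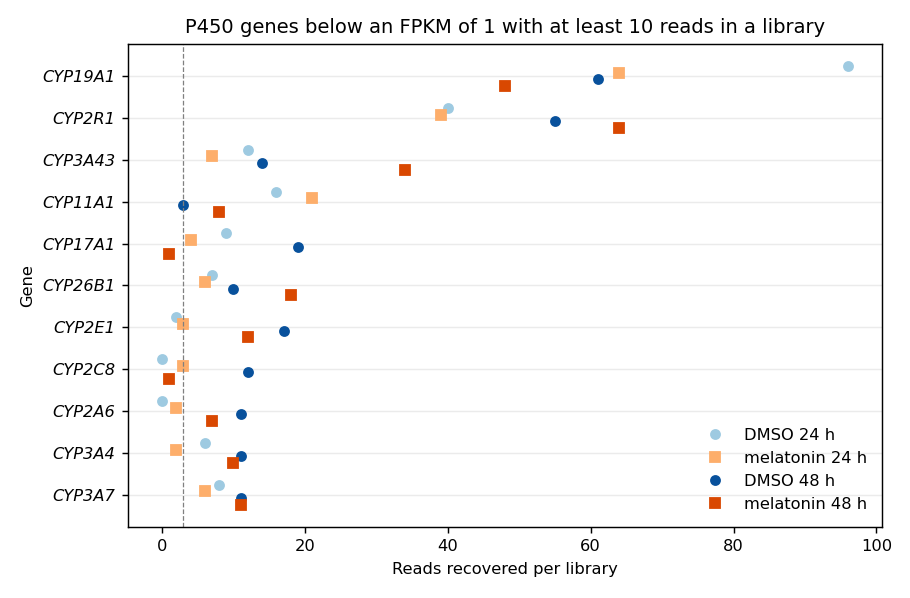
Reads recovered per library for the 11 P450 genes below an FPKM of 1 that had at least 10 reads in some library, circles for DMSO and squares for melatonin, with a dashed line at the floor of 3 reads. CYP19A1 has the most reads, 96 in DMSO 24 h, and CYP2E1, CYP2A6 and CYP2C8 have at most 3 reads in either 24 h library.

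The retinoid P450 were near the floor. CYP26B1, which clears retinoic acid, had 7 and 6 reads with DMSO and melatonin at 24 h and 10 and 18 at 48 h, and CYP26A1, CYP26C1 and CYP27C1 had at most 2. CYP39A1 and CYP46A1, which hydroxylate sterols, also had at most 2. The other genes with 1 to 4 reads in their highest library were CYP2A7, CYP2C18, CYP2F1, CYP4A11, CYP4A22, CYP4F22, CYP4X1 and CYP4Z1.

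The comparisons of 48 h with 24 h asked how the levels differed with time in each medium, and they share their libraries with the comparisons of melatonin with DMSO. With DMSO 14 P450 genes were tested, 1 was called higher (CYP21A2, log2 fold change 1.36) and 1 lower (CYP4F2, -1.06), beside 3.5% and 4.24% of all genes tested. CYP21A2, CYP27B1 and CYP2D6 were tested there only through the 48 h library and CYP4F2 only through the 24 h library, so the direction of these 4 came with the filter. With melatonin 12 were tested and none was called, beside 2.45% called higher and 1.71% lower. The median of the tested P450 genes was -0.07 with DMSO and 0.20 with melatonin, and that of all genes tested was 0.00 and -0.04. When FPKM were rescaled to TPM, the median of all genes tested moved by 0.46 with DMSO and 0.25 with melatonin, so directions of small differences over time depend on the scaling.

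With DMSO the ratio of 48 h over 24 h was 5.18 (3.55 to 7.78) for CYP21A2, 3.05 (2.04 to 4.70) for CYP27B1, 2.09 (1.31 to 3.44) for CYP2D6, 1.47 (1.30 to 1.67) for CYP4F3 and 0.178 (0.105 to 0.286) for CYP4F2. Of these CYP4F3 had an FPKM above 1 at both times, and it was higher at 48 h under every scaling tried. With melatonin CYP4F2 was again lower at 48 h, at 0.437 (0.329 to 0.576), and CYP4F12 was lower at 0.741 (0.666 to 0.826). CYP3A5, tested only through the 48 h library, was at 3.10 (2.46 to 3.94). Higher at 48 h were CYP4V2 at 1.69 (1.43 to 2.00), CYP2U1 at 1.55 (1.31 to 1.84) and CYP2J2 at 1.44 (1.20 to 1.74). CYP4F3, at 1.41 (1.22 to 1.63), and CYP24A1, at 1.24 (1.12 to 1.38), were higher too. All of these kept their direction under every scaling, as CYP4F2 and CYP4F12 did. CYP20A1, CYP24A1, CYP4F11, CYP4F12, CYP2S1, CYP2J2 and CYP2U1 with DMSO, and CYP2W1 and CYP27B1 with melatonin, changed sign between scalings.

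**Figure D5:**
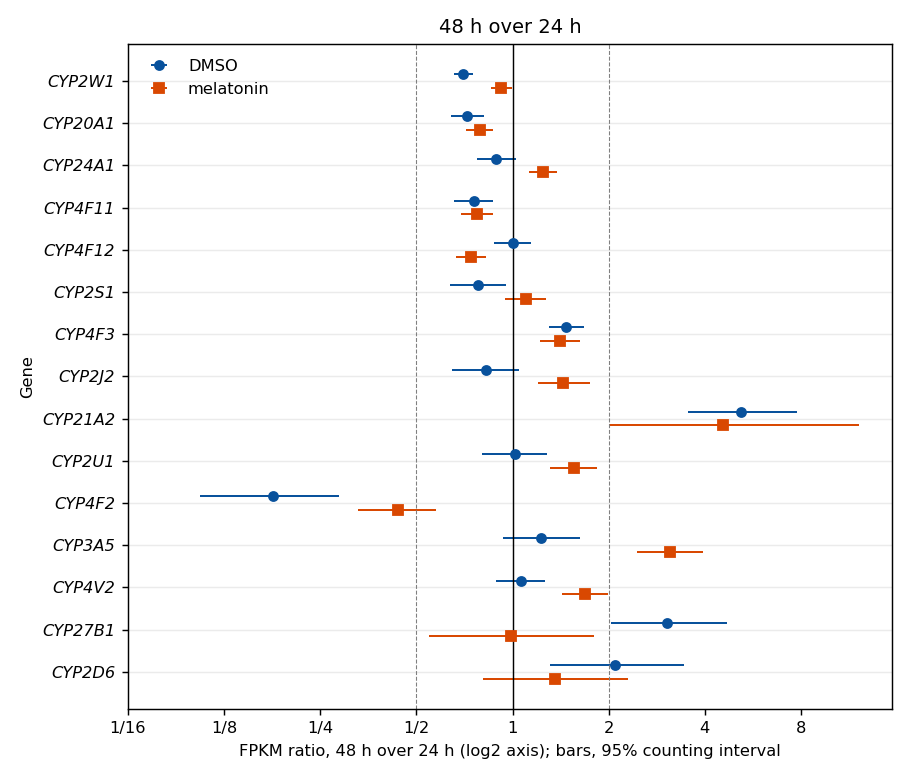
FPKM ratio of 48 h over 24 h on a log2 axis for the 15 P450 genes, circles for DMSO and squares for melatonin, with 95% counting intervals and dashed lines at ratios of 1/2 and 2. CYP4F2 lies below 1 with both and CYP21A2 above 1 with both, CYP27B1 lies at 3.05 with DMSO and 0.990 with melatonin, and the sign of CYP20A1, CYP24A1, CYP4F11, CYP4F12, CYP2S1, CYP2J2 and CYP2U1 with DMSO and of CYP2W1 and CYP27B1 with melatonin depends on the scaling.

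The genes of proteins that serve P450 enzymes were read beside all genes tested. Over the 4 comparisons 1.42% to 3.5% of all genes were called higher and 1.71% to 4.24% lower. Of 8 redox partner genes 7 were tested in each comparison. The 1 call was FDXR, the reductase of mitochondrial ferredoxin, lower at 48 h than at 24 h with DMSO, beside 4.24% of all genes. Its log2 fold change was -1.02, and it was not called after rescaling to TPM. POR, the NADPH P450 reductase, had an FPKM of 75.4 in DMSO 24 h, 73.6 in melatonin 24 h, 102.5 in DMSO 48 h and 70.2 in melatonin 48 h, highest in DMSO 48 h. All 12 genes of heme synthesis and breakdown were tested and none was called in any comparison. TPM without mitochondrial genes gave 1 higher call for melatonin over DMSO at 48 h, beside 5.32% of all genes. It also gave 1 lower call over time with DMSO, beside 7.33%. With melatonin 7 of the 12 had a higher FPKM at 24 h (median log2 fold change 0.12) and 10 at 48 h (median 0.31), beside 53.5% and 47.5% of all genes tested. After rescaling to TPM 9 of the 12 were higher at each time. The median of all genes tested was then 0.185 at 24 h and -0.07 at 48 h. At 48 h against 24 h 10 of the 12 were lower with DMSO (median -0.52) and 11 with melatonin (median -0.14), beside 49.7% and 54.9% of all genes tested. After rescaling to TPM 7 and 5 of the 12 were lower, and the median of all genes tested was 0.47 and 0.21. Among the 12 genes FECH, which puts iron into heme, had 5.98, 9.47, 3.53 and 7.0 in the order given for POR, higher with melatonin at each time. With melatonin 6 counting intervals of the 12 lay above 1 and 3 below at 24 h, beside 28.2% and 22.4% of all genes. At 48 h these were 7 and 1, beside 29.1% and 33.1%, and the 1 below was ALAS1, at a ratio of 0.819 (0.730 to 0.919).

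Of 14 nuclear receptors that control P450 genes 10 were tested, and the 1 call over the 4 comparisons was NR1H4, the bile acid receptor FXR, lower with melatonin at 48 h, beside the 3.32% of all genes. TPM without mitochondrial genes gave 1 lower call at 24 h, beside 5.42% of all genes. TPM gave 2 higher calls over time with DMSO, beside 15.3% of all genes. NR1H4 had an FPKM of 12.4 in DMSO 24 h, 5.84 in melatonin 24 h, 14.3 in DMSO 48 h and 4.33 in melatonin 48 h, with log2 fold changes of -0.97 at 24 h and -1.52 at 48 h. NR1I2, the receptor PXR, had 2.65, 2.52, 2.22 and 2.96 in that order. NR1I3, the receptor CAR, stayed between 0.403 and 0.690. The median of the tested receptors was -0.06 at 24 h and -0.10 at 48 h, and at 24 h it turned to 0.09 after rescaling to TPM.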

How the data were processed

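4 libraries of HepG2 polyadenylated RNA were analysed. The authors deposited FPKM per Ensembl gene with gene length, on hg38. The methods name MapSplice for mapping and Cufflinks for expression, and the submitters' processing notes name Bowtie2 2.0.6, TopHat2 2.0.9, Cufflinks 2.1.1 and Cuffdiff 2.1.1. Which aligner's output was used, and how library size was set, is not given in the sources used here. Reads were recovered as FPKM times length over the library's step, and 100% of values were whole within 0.02. Log2 fold changes used a pseudocount of 1, a minimum FPKM of 1 in either library and a threshold of 1. Ratios carry exact conditional (Clopper-Pearson) intervals and levels exact Poisson intervals, at 95%, from recovered reads. A count test between single libraries was not run, since it would compare libraries and not conditions. The self-test on simulated counts recovered the reads and the changes put in. It checked the code only. It is not taken as evidence for the calls of low genes such as CYP21A2 and CYP4F2, or on the spread between cultures.

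P450 genes that reached an FPKM of 1 in a library were named with all values, and those with at least 10 reads by their range. Values of 1 gene are not reported here by name. The members and lists were chosen with earlier results of these data known. Alternatives were a pseudocount of 0.1, other filters, a 1.5-fold threshold, TPM, TPM without mitochondrial genes, centring on the median and, chosen after seeing the data, library sizes taken as all reads on genes. Exon overlaps came from GENCODE 44, in which all 48 genes were found and 12 had the same start and end as in the files. Promoters came from RefSeq. Python 3.11.15, numpy 2.4.6, pandas 2.3.3, scipy 1.17.1 and matplotlib 3.10.9 were used.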

Additional observations from a re-analysis of the deposited data

How the results depend on the processing

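With 1 library per condition, the spread between cultures is unknown and no replicate could be left out. No paired analysis was run, since each condition had 1 library and the labels give no replicate numbers. The number of P450 genes past the threshold was 0 for melatonin over DMSO at 24 h, 1 at 48 h, 2 for 48 h over 24 h with DMSO and 0 with melatonin. At 48 h it was 8 with a pseudocount of 0.1, 8 in TPM without mitochondrial genes and 8 at 1.5-fold, in each case 6 higher and 2 lower. It was 3 in TPM, 1 higher and 2 lower, and 0 at a minimum FPKM of 5. At that minimum CYP21A2 was no longer tested. Of all genes tested, 5.48% were higher and 6.64% lower with the pseudocount of 0.1. These shares were 5.32% and 5.64% in TPM without mitochondrial genes, 8.62% and 10.0% at 1.5-fold, and 3.93% and 6.06% in TPM. At 24 h the number of P450 genes was 1 at 1.5-fold, higher, beside 4.02% of all genes higher and 7.53% lower. With DMSO over time the number was 0 at a minimum FPKM of 5, which left CYP21A2 and CYP4F2 untested. It was 1 with all reads on genes as library size, higher, beside 4.40% of all genes. In TPM it was 4, with 3 higher and 1 lower, beside 15.3% and 2.87%. With melatonin over time it was 2 with a pseudocount of 0.1, 2 in TPM without mitochondrial genes and 2 at 1.5-fold, in each case 1 higher and 1 lower. The shares of all genes were 5.26% and 3.34%, 4.94% and 2.72%, and 6.76% and 6.05% in that order. In TPM the number was 1, higher, beside 6.15%. The pseudocount and the unit act on the low genes, whose ratio of 2 gives a log2 fold change under 1 at a pseudocount of 1. Without a filter on low values the median log2 fold change of the P450 genes was 0.00 for melatonin over DMSO at 24 h and at 48 h and for 48 h over 24 h with melatonin. In TPM the median was 0.58 at 24 h, 0.35 with DMSO over time and 0.48 with melatonin over time. At a minimum FPKM of 5 it was -0.34 with DMSO and -0.21 with melatonin over time. TPM moved the median of all genes tested by 0.16 for melatonin over DMSO at 24 h, by 0.46 with DMSO over time and by 0.25 with melatonin over time, and all reads on genes as library size moved it by 0.13 and 0.11 over time. The share of all calls that were higher went from 45.2% to 84.2% in TPM with DMSO over time, to 61.8% when all reads on genes were the library size, and from 58.9% to 76.5% in TPM with melatonin over time. For melatonin over DMSO at 48 h the 15 P450 genes kept their direction under each scaling and pseudocount. Under each scaling of the libraries 10 intervals lay above 1 and 5 below. Among the 15, the direction of CYP21A2, CYP27B1, CYP2D6, CYP3A5 and CYP4F2 came with the filter, so its being kept is no support. At 24 h CYP3A5 and CYP2D6, which were not tested there, changed sign. The cause of the differences between scalings was not tested.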
